A study of Mus musculus with 2 samples.

Results

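The 10 genes described here are named for the stem cells at the base of the intestinal crypt: Lgr5, Olfm4, Ascl2, Smoc2, Slc12a2, Axin2, Rnf43, Sox9, Cd44 and Lrig1. They were taken by name from the 31053 gene rows of both count tables, and all 10 were found. Crypt base stem cells divide under Wnt signals that R-spondins strengthen, and their daughters move up the crypt and villus as they differentiate. Lgr5 binds R-spondins, and Axin2 and Rnf43 are switched on by the pathway and dampen it. Not all of the genes are restricted to stem cells: Cd44, a hyaluronan receptor, is well known from leukocytes, and Sox9 is also known from Paneth and tuft cells.

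Small intestine from 1 Tg and 1 FMTg mouse was compared. The Tg mouse was Mdm2+/- Cag-CreERTg and is described as retaining Mdm2. The FMTg mouse was Mdm2FM/- Cag-CreERTg, the model of Mdm2 loss and acute p53 activation. Both were C57BL/6j mice aged 60 days, both carried the tamoxifen-activated Cre under the broadly active Cag promoter and 1 minus allele of Mdm2, and both received tamoxifen once, at 6 mg for 40 g of body weight, and were sampled 24 hours later. Because the promoter is broadly active, epithelium and leukocytes could both recombine. With 1 library per genotype no difference has a replicate check and no test was run. Intervals are given at 95% and hold the counting error alone.

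The Tg library held 6270 barcodes and 54013005 unique molecular identifiers (UMIs, counted RNA molecules), and the FMTg library 6382 barcodes and 49805718 UMIs. The filters kept 2913 Tg and 2675 FMTg cells. The mitochondrial limit of 25% removed 75.3% of Tg and 78.2% of FMTg barcodes on the epithelial side against 20.1% and 29.1% on the leukocyte side. The libraries shared 14 barcodes, 4 of them among kept cells. Levels are given as CPM, the UMIs of a gene per 1e6 UMIs of a cell class in 1 library.

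Cells were divided by 10 epithelial and 10 leukocyte gate genes. Epithelial cells with at least 0.1% of their UMIs in 56 cell cycle genes, none of them among the 10, formed the cycling epithelium, with 14 Tg and 43 FMTg cells. That is 0.481% of kept Tg cells (0.263 to 0.805) and 1.61% of kept FMTg cells (1.17 to 2.16). It is a range on a score and not a cell type. Of its cells, 2 Tg and 0 FMTg lay within 2-fold of the limit. So did 11 Tg and 8 FMTg of the remaining epithelial cells. Other epithelium held 750 and 620 cells, and leukocytes 2072 and 1958. Epcam, an epithelial adhesion molecule, stood at 2458 CPM in the Tg and 2002 CPM in the FMTg cycling epithelium, where Ptprc, the leukocyte antigen CD45, had 0 and 8 UMIs. Mdm2 itself stood at 25.2 CPM in Tg and 97.9 CPM in FMTg cycling epithelium, a log2 ratio of FMTg over Tg of 1.96 (1.08 to 2.98). It stood at 98.4 CPM in Tg and 192 CPM in FMTg other epithelium, and its log2 ratio in leukocytes was -0.056 (-0.19 to 0.08). These 3′ counts do not check the label, since the labels do not say which part of the gene was altered. Cdkn1a, the p53 target p21, stood at 41.3 and 208 CPM in cycling epithelium, 550.2 and 901 CPM in other epithelium and 93.9 and 99.5 CPM in leukocytes. The leukocyte sums do not hold for each subset. In the myeloid cells described below Cdkn1a stood at 281 and 464 CPM, 0.72 higher in FMTg (0.51 to 0.93). Mdm2 was 0.45 higher there (0.11 to 0.77).

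The start regions of 3 members are shown, since these genes mark the ends of the pattern that follows. Olfm4 was the member most restricted to the cycling epithelium, Axin2 lay mostly in enterocyte-like cells, and Cd44 was the member with the most UMIs in leukocytes. Each line holds the 250 bases before the RefSeq transcript start (GRCm38.p6), 5′ to 3′ on the gene's strand, with CG pairs in capitals. The positions are chr14:80000052-80000301 on the plus strand for Olfm4, chr11:108920099-108920348 on the plus strand for Axin2 and chr2:102901666-102901915 on the minus strand for Cd44. Another annotation places the Olfm4 gene at chr14:79984081-80023139. The Olfm4 window lies inside that span and not before its start.
Olfm4: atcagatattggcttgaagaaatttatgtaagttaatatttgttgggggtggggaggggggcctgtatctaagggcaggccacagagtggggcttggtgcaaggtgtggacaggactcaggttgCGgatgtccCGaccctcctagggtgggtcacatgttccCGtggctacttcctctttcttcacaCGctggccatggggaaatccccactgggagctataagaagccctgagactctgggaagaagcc
Axin2: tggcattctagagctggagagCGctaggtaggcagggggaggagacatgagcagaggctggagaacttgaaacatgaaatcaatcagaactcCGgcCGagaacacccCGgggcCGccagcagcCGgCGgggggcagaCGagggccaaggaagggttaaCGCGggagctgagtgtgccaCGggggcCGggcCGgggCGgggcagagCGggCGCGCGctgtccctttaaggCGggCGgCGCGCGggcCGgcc
Cd44: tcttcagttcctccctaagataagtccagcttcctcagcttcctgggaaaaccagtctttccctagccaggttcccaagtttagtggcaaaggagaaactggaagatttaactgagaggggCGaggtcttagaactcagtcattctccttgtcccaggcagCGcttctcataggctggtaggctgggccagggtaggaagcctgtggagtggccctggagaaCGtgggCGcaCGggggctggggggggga
The Axin2 window held 24 CG pairs, the Cd44 window 5 and the Olfm4 window 4, against a median of 6 over 32851 mouse promoters. RefSeq start regions matched 6 of the 10 members with 7 promoters. The letters CTTTGAT, a binding motif of the Wnt-responsive TCF/LEF factors, were searched on both strands and with no other motif. None of the 7 windows held it, as against 3.21% of all promoters over the same 250 bases. With so rare a motif and only 7 windows, finding none is likely for any genes and does not set the members apart.

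The genes did not share a single cellular home. Olfm4, a secreted glycoprotein of crypt base cells, had 97.2% of its 282 Tg UMIs and 97.8% of its 756 FMTg UMIs in the cycling epithelium. Smoc2, a matricellular protein, had 72.7% and 76.8% there. Axin2 had 80.4% and 64.3% of its UMIs in enterocyte-like cells, Sox9 had 91.4% and 81.1% in tuft-like cells, and Cd44 had 96.7% and 73.2% in leukocytes. These shares follow the number of cells caught in each class as well as the level per cell.

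**Figure D1:**
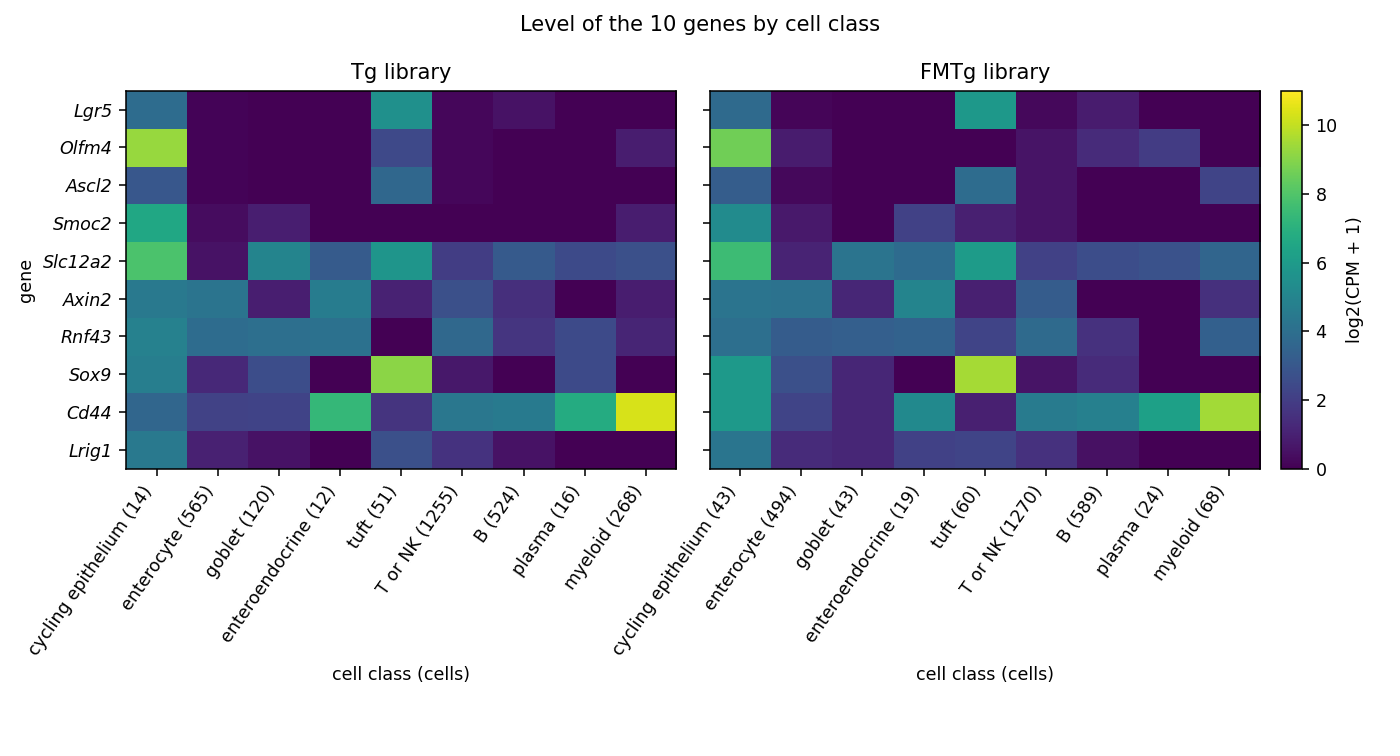
Heat map of log2(CPM + 1) for the 10 genes (rows) in 9 cell classes (columns, with cell numbers), Tg on the left and FMTg on the right. Olfm4 is bright in the cycling epithelium, Sox9 in tuft-like cells and Cd44 in myeloid cells of both libraries.

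Within the cycling epithelium, Olfm4 and Slc12a2 were the highest members in both libraries. Olfm4 stood at 628 CPM in Tg and 393 CPM in FMTg. Slc12a2, the basolateral sodium, potassium and chloride cotransporter of crypt cells, stood at 234 and 187 CPM. Smoc2 stood at 91.7 CPM in Tg and 38.8 CPM in FMTg.

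The remaining members were low in Tg. Lgr5, the R-spondin receptor, had 6 Tg UMIs (13.8 CPM) and 24 FMTg UMIs (12.8 CPM). Ascl2, a Wnt-responsive transcription factor, had 3 and 16 UMIs. Axin2, a scaffold of the complex that degrades beta-catenin, had 9 UMIs (20.6 CPM) and 33 UMIs (17.6 CPM). Their intervals were wide, since so few molecules were counted.

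Rnf43, a ubiquitin ligase that removes Frizzled receptors, had 12 UMIs (27.5 CPM) and 29 UMIs (15.4 CPM). Lrig1, a membrane inhibitor of ErbB receptors, had 9 UMIs (20.6 CPM) and 34 UMIs (18.1 CPM). Sox9, a transcription factor of crypt cells, had 11 UMIs (25.2 CPM) in Tg and 114 UMIs (60.7 CPM) in FMTg. Cd44 had 5 UMIs (11.5 CPM) in Tg and 113 UMIs (60.1 CPM) in FMTg, so both stood higher in FMTg, while the other members with at least 20 UMIs were level or lower.

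The ratios can be read on the log2 scale, FMTg over Tg. Cd44 was 2.39 higher (1.13 to 4.04), which is 5.24-fold, and Sox9 was 1.27 higher (0.37 to 2.31). Smoc2 fell by 1.24 (-1.81 to -0.65) and Olfm4 by 0.68 (-0.88 to -0.47). Slc12a2 differed by -0.32 (-0.65 to 0.01), Rnf43 by -0.83 (-1.85 to 0.27) and Lgr5 by -0.11 (-1.44 to 1.47), and these intervals include 0.

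Of the 9 members that reached 20 UMIs in the 2 libraries together, 2 were at least 1.5-fold higher in FMTg and 3 at least 1.5-fold lower. Among all 7623 genes measured to that depth, 15.5% were that much higher and 11.5% that much lower. The median log2 ratio of the 9 members was -0.23, against -0.02 over all genes. For Olfm4 alone, the ratio of -0.68 became 0.57, the opposite direction, without the cell of each library with the most Olfm4. With equal weight per cell the Olfm4 ratio was 0.31. With the first step for each gene Smoc2 stayed at -1.16, Sox9 at 1.46 and Cd44 at 2.18.

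**Figure D2:**
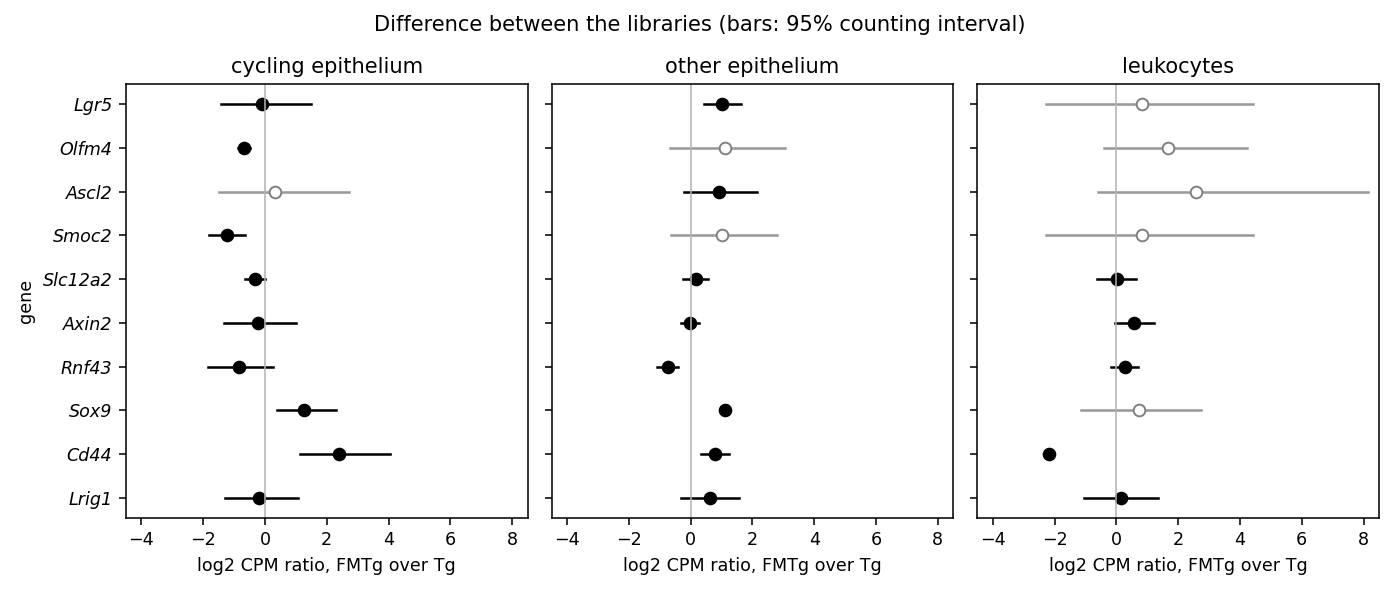
Log2 CPM ratio of FMTg over Tg (horizontal axis) for each gene in 3 cell classes, with 95% counting intervals as bars. Filled points reach 20 UMIs in the libraries together and open points do not. Cd44 lies to the right of 0 in the cycling epithelium and to the left in leukocytes.

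Single cells of the cycling epithelium differed widely. In Tg, 1 cell of 57461 UMIs held 198 of the 274 Olfm4 UMIs, 5 of the 6 Lgr5 UMIs, 58 of the 102 Slc12a2 UMIs and 7 of the 9 Axin2 and Lrig1 UMIs. It was the only Tg cell with all 10 members. In FMTg, 4 cells held all 10. Olfm4 reached at least 10 UMIs in 2 Tg cells, which held 265 of its UMIs, and in 8 FMTg cells, which held 707 of 739.

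Lgr5 was found in 2 of 14 Tg and 6 of 43 FMTg cells. Every one of these cells also held Olfm4, Ascl2, Smoc2 and Slc12a2. Olfm4 was found in 6 and 21 cells, Smoc2 in 7 and 23, and Slc12a2 in 7 and 26. Cd44 was spread differently: 5 Tg cells held 1 UMI each, whereas 22 FMTg cells held it, with 31 UMIs in the highest and 14 in the next.

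Deeper cells held more of the members. Median depth was 31832 UMIs in Tg and 43982 in FMTg, and among cells with at least 10000 UMIs, 6 of 9 Tg and 30 of 33 FMTg cells held at least 3 members, and 6 and 18 of them at least 5. After each cell was thinned to 2000 UMIs, Olfm4 was seen in 18.2% of 11 Tg cells (2.28 to 51.8) and 21.6% of 37 FMTg cells, against 42.9% and 48.8% before. A difference in the share of cells with Olfm4 was not detectable at this depth. In leukocytes 0.145% of Tg and 0.409% of FMTg cells had an Olfm4 UMI at median depths of 4662 and 4328 UMIs. Myeloid cells held 2 of the 3 Tg and 0 of the 8 FMTg leukocyte UMIs of Olfm4, and the source of these UMIs was not tested.

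Some FMTg cycling cells carried markers of other lineages. In 7 of 43 FMTg cells and 0 of 14 Tg cells, a goblet, tuft, enteroendocrine, Paneth or leukocyte gate list reached 10 UMIs. The summed tuft markers were 1 UMI in Tg and 126 in FMTg, of which 122 lay in 1 cell, and all 6 were found in FMTg against 1 in Tg. Paneth markers summed to 5 and 149 UMIs, with 5 of 5 markers found in FMTg and 2 in Tg. Goblet markers summed to 35 and 540 UMIs and enteroendocrine markers to 4 and 305, with 342 and 283 in the highest FMTg cell. The leukocyte gate summed to 2 UMIs in Tg, with 1 of 10 genes found, and to 40 in FMTg, with 9 of 10 found and 23 UMIs in 1 cell. T or NK markers summed to 1 and 46 UMIs. The FMTg cell with the most Cd44 held 1 leukocyte gate UMI. Those 7 cells held 18 of the 24 Lgr5 UMIs, 415 of 739 Olfm4 UMIs, 63 of 114 Sox9 UMIs and 59 of 113 Cd44 UMIs. Without them the log2 ratio was 1.65 for Cd44, 0.43 for Sox9, -1.54 for Olfm4 and -1.78 for Lgr5, and their part in the differences was otherwise not tested.

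**Figure D3:**
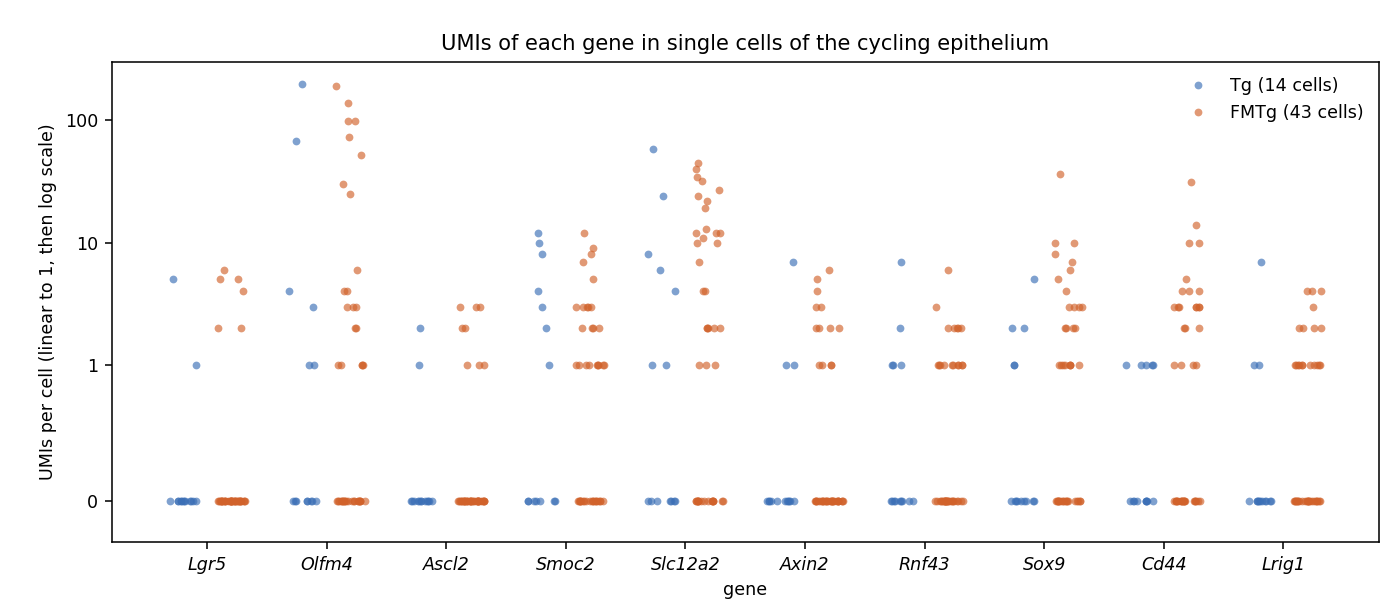
UMIs of each gene (horizontal axis) in every cell of the cycling epithelium (vertical axis, linear up to 1 UMI and logarithmic above), with 14 Tg and 43 FMTg cells as points. A few cells hold most Olfm4 and Lgr5 UMIs, while Cd44 exceeds 1 UMI in FMTg cells only.

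Summed over all epithelium, the picture turned. Olfm4 was then 15.8 CPM in Tg and 51.0 CPM in FMTg, a log2 ratio of 1.69 (1.49 to 1.89), and Slc12a2 was 12.8 and 30.9 CPM, a ratio of 1.28. Smoc2 was 1.10 higher and Lgr5 1.12 higher in FMTg. Cycling cells made up 14 of 764 epithelial cells in Tg and 43 of 663 in FMTg. The level in summed epithelium and the number of cycling cells caught cannot be told apart from these sums alone.

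In epithelium outside the cycling range the 10 genes separated by lineage. The makeup of this class differed between the libraries. Among clusters with no cycling cells, some held more FMTg cells, with 19 Tg and 153 FMTg or 72 and 148. Others held more Tg cells, with 150 and 30, 116 and 42, 119 and 32 or 85 and 24. The rest were nearer equal, such as 51 and 60. The part of this makeup in the ratios of other epithelium and its subsets was not tested. Sox9 stood at 31.0 CPM in Tg and 66.2 CPM in FMTg, 1.09 higher (0.94 to 1.25). Rnf43 stood at 13.2 and 7.84 CPM, a ratio of -0.75 (-1.10 to -0.40). Lgr5 had 42 UMIs (2.45 CPM) in Tg and 63 UMIs (4.94 CPM) in FMTg, 1.01 higher (0.43 to 1.61). Axin2 stood at 14.7 and 14.4 CPM, a ratio of -0.02 (-0.31 to 0.26), but at a 10% mitochondrial limit its ratio was 1.44.

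Of 8 members with at least 20 UMIs there, 5 were at least 1.5-fold higher in FMTg and 1 lower. Over all 11705 genes the shares were 17.7% higher and 8.53% lower, and the median ratio of the 8 was 0.71 against 0.13 for all genes. Lgr5, Ascl2 and Sox9 were among the 5 higher members. Tuft-like cells held 41 of the 42 Tg and 62 of the 63 FMTg Lgr5 UMIs of this class. For Ascl2 they held 11 of 12 and 15 of 17, and for Sox9 501 of 532 and 785 of 844. Within tuft-like cells the ratios of these genes were 0.39, 0.24 and 0.44. The part of the number of tuft-like cells in their higher levels was not tested. Cd44 counted as higher, at 4.60 and 7.92 CPM (0.78, 0.34 to 1.23), but 1 FMTg cell held 47 of its UMIs together with 44 UMIs of myeloid markers and none of the leukocyte gate. Without the highest cell of each library the Cd44 ratio was 0.31, and with equal weight per cell it was -0.26.

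Tuft cells are chemosensory cells of the epithelium. The tuft-like cells, 51 in Tg and 60 in FMTg, were chosen by 6 tuft markers, and outside that list Nrgn and Cd24a were among their leading genes. Sox9 was found in all 51 Tg and all 60 FMTg tuft-like cells, at 542 and 733 CPM, a log2 ratio of 0.44 (0.27 to 0.60). Lgr5 had 41 UMIs (44.3 CPM) in 28 Tg cells and 62 UMIs (57.9 CPM) in 29 FMTg cells, 0.39 higher with an interval of -0.21 to 0.99.

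Tuft-like cells thus held 82.0% of all Tg and 68.9% of all FMTg Lgr5 UMIs, against 6 of 50 and 24 of 90 UMIs in the cycling epithelium. Ascl2 had 11 and 15 UMIs there, Slc12a2 stood at 53.0 and 64.4 CPM, and Olfm4 had 4 and 0 UMIs. Ptprc was at 313 CPM in Tg and 216 CPM in FMTg tuft-like cells, and Rac2 had 960 UMIs in each, while Laptm5 had 3 and 8 and Cd52 4 and 18 UMIs. T or NK markers summed to 63 and 175 UMIs, of which 1 cell held 54 and 64, and their part in the levels was not tested. Of the 4 members with at least 20 UMIs in these cells, 0 were 1.5-fold higher and 0 lower, where all 6982 genes gave 9.34% higher and 10.7% lower.

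The difference in Sox9 over all other epithelium, 1.09, was larger than within tuft-like cells, 0.44. Tuft-like cells were 51 of 750 and 60 of 620 cells of that class. In the enterocyte-like cells Sox9 had 20 UMIs (1.44 CPM) and 58 UMIs (5.52 CPM), 1.94 higher (1.19 to 2.75), and 19 of the 58 lay in 1 FMTg cell with 71 tuft marker UMIs. Without tuft-like cells the ratio over other epithelium was -0.69 for Slc12a2, against 0.16 with them, and the member median was 0.42. The part of tuft transcripts in the enterocyte-like difference was not tested.

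Both Wnt feedback genes were found in enterocyte-like cells, which are absorptive. Axin2 stood at 17.7 CPM in Tg and 16.5 CPM in FMTg enterocyte-like cells, close to its 20.6 and 17.6 CPM in cycling epithelium. Rnf43 stood at 13.7 CPM in Tg and 8.19 CPM in FMTg, a ratio of -0.75 (-1.13 to -0.37), below its 27.5 and 15.4 CPM in cycling epithelium. Over the same cells Lgr5 had 1 UMI in each library and Olfm4 had 1 and 8.

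Goblet-like cells, which secrete mucus, held Slc12a2 at 30.4 CPM in Tg and 17.9 CPM in FMTg, with 67 and 14 UMIs in 120 and 43 cells. Rnf43 had 33 and 7 UMIs in them. The intervals of both ratios, -0.77 (-1.71 to 0.08) and -0.75 (-2.17 to 0.46), include 0. Lgr5, Olfm4 and Ascl2 had no UMI in goblet-like cells of either library, with an exact upper bound of 3.69 counts each. Cd44 had 20 UMIs in 12 Tg enteroendocrine-like cells (159 CPM) and 11 UMIs in 19 FMTg cells (36.6 CPM), and 4 and 3 of these cells held it.

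Cd44 was the member of the leukocytes. It had 3350 UMIs (296 CPM) in Tg leukocytes and 616 UMIs (64.9 CPM) in FMTg leukocytes. The log2 ratio was -2.19 (-2.31 to -2.06), 4.55-fold lower in FMTg. Cd44 was found in 19.2% of Tg and 12.1% of FMTg leukocytes. With each cell thinned to 2000 UMIs, 79.9% of Tg and 44.8% of FMTg myeloid cells held it.

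Most of this lay in myeloid cells, a class led by Lyz2, Ccl9 and Fn1 that also had the mast cell protease gene Mcpt1 among its 10 leading genes. Myeloid cells numbered 268 in Tg and 68 in FMTg, 9.20% and 2.54% of kept cells, and held 3149 and 383 Cd44 UMIs. Their Cd44 level was 1294 CPM in Tg and 714 CPM in FMTg, a ratio of -0.86 (-1.01 to -0.70). Without myeloid cells the Cd44 ratio of leukocytes was 0.20, so the lower leukocyte sum in FMTg was not seen outside the myeloid class.

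Among lymphocytes Cd44 was lower, and the intervals of its ratios, -0.14 to 0.58 in T or NK cells and -0.22 to 0.90 in B cells, include 0. It stood at 19.7 CPM in Tg and 22.9 CPM in FMTg T or NK cells, at 21.3 and 26.9 CPM in B cells, and at 107 and 76.1 CPM in the 16 and 24 plasma cells. The myeloid class itself differed in makeup: S100a8, a neutrophil calcium-binding protein, was at 3996 CPM in Tg and 1277 CPM in FMTg, while Csf1r, the macrophage growth factor receptor, was at 150.0 and 169.6 CPM. By a limit chosen after the values were seen, cells with at least 10 UMIs of S100a8 and S100a9 were 35.4% of Tg and 14.7% of FMTg myeloid cells. Cd44 was lower in FMTg both in those cells, at 1150 and 683 CPM (-0.75, -1.18 to -0.35), and in the rest, at 1362 and 719 CPM (-0.92, -1.09 to -0.75).

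**Figure D4:**
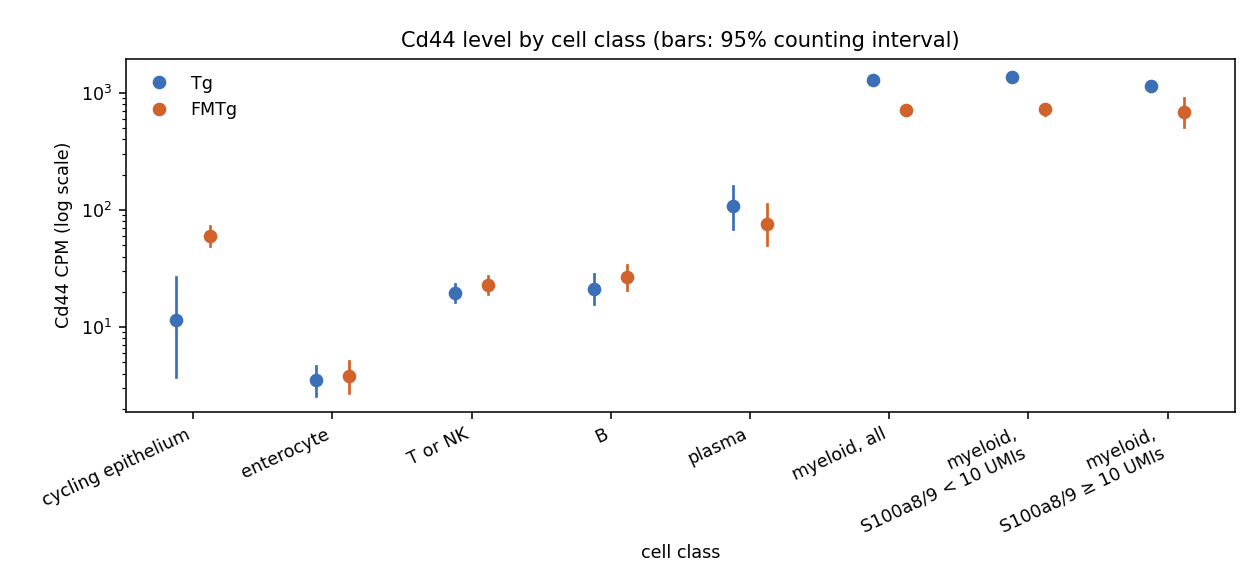
Cd44 CPM (vertical axis, log scale) by cell class in Tg and FMTg, with exact Poisson 95% intervals as bars. The level is higher in FMTg in the cycling epithelium, near equal in T or NK and B cells, and lower in FMTg in myeloid cells with few or many S100a8 and S100a9 UMIs.

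Free RNA of the epithelium also reaches leukocyte barcodes, so each member's leukocyte level was set against 12 epithelial genes that leukocytes should lack. In Tg those 12 genes had leukocyte levels of 2.06% to 7.69% of their epithelial level, and in FMTg 2.36% to 7.25%. Cd44 stood at 6199% and 444%. Rnf43 stood at 57.5% (44.5 to 73.7) and 106% (80.3 to 141), and Axin2 at 24.4% (17.1 to 34.0) and 36.3% (26.2 to 49.4). In leukocytes with at most 1 epithelial gate UMI, Rnf43 stood lower, at 34.6% in Tg, on 11 UMIs, and 90.6% in FMTg.

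Slc12a2 stood at 34.5% and 14.3% and Lrig1 at 75.0% and 35.2%, also above the free-RNA range in both libraries. Their leukocyte levels were near equal in Tg and FMTg, at 4.41 and 4.43 CPM and at 1.24 and 1.37 CPM. Their epithelial levels were higher in FMTg, at 12.8 and 30.9 CPM and at 1.65 and 3.89 CPM. With the intervals included, 5 of the 10 members lay above that range in both libraries. Olfm4 stood at 1.67% and 1.65% and Sox9 at 1.43% and 1.13%. These values are below the lowest of the 12, but in Tg the intervals of both genes, and in FMTg that of Olfm4, reach into the range. Lgr5 (2 and 3 leukocyte UMIs) and Smoc2 (2 and 3) lay within the range. Ascl2 was above it at 10.4% and 23.4%, on 1 and 5 UMIs, with intervals that reach into the range.

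**Figure D5:**
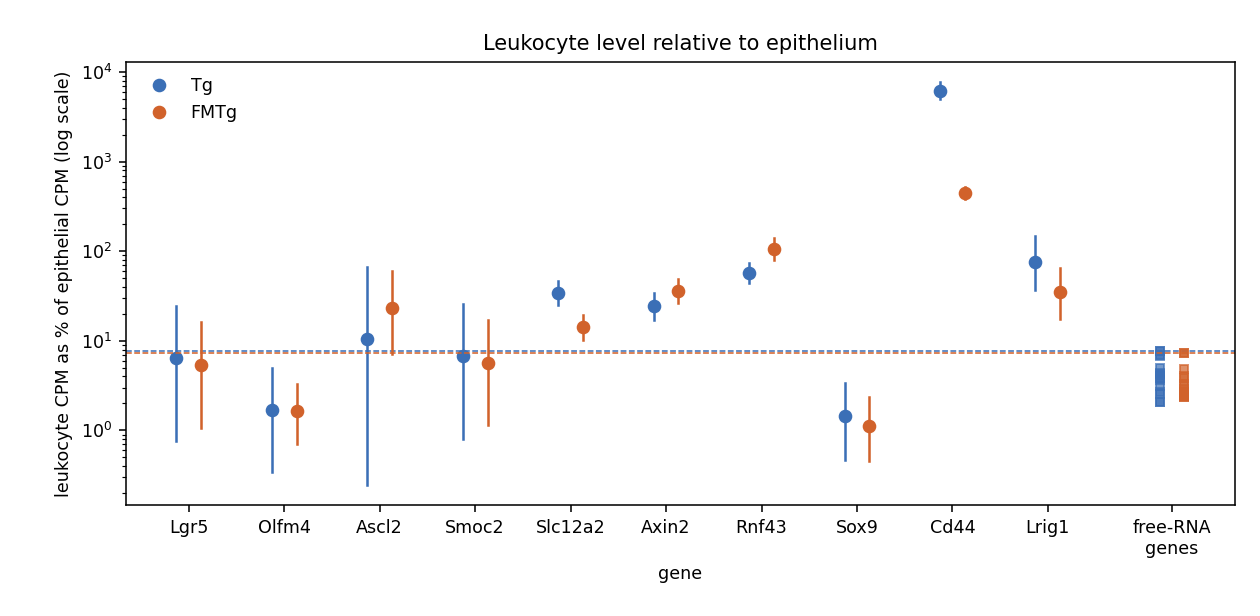
Leukocyte CPM as a percentage of epithelial CPM (vertical axis, log scale) for each gene in Tg and FMTg, with 95% intervals. Squares are the 12 free-RNA genes and dashed lines their highest value in each library, and Cd44, Rnf43, Axin2, Slc12a2 and Lrig1 stand above both lines.

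Within leukocytes these members were not spread evenly. Rnf43 had 79 UMIs (12.3 CPM) in Tg and 78 UMIs in FMTg T or NK cells, against 5 UMIs in the B cells of each library (2.27 and 1.95 CPM). Axin2 stood at 5.43 and 8.30 CPM in T or NK cells, with 4 and 0 UMIs in B cells. Lrig1 had 13 and 12 of its 14 and 13 leukocyte UMIs in T or NK cells.

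Slc12a2 was at 2.95 and 3.32 CPM in T or NK cells and 7.70 and 5.07 CPM in B cells, and in cycling leukocytes at 11.9 and 9.61 CPM. Of the 5 members with at least 20 leukocyte UMIs, 0 were 1.5-fold higher in FMTg and 1, Cd44, was lower. Over all 12268 genes 5.99% were that much higher and 13.9% that much lower. Axin2 was at 3.62 and 5.37 CPM over all leukocytes (0.57, -0.05 to 1.20), and Rnf43 at 7.77 and 9.38 CPM (0.27, -0.17 to 0.71).

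A wider list of 41 other Wnt and stem cell genes gives the surroundings. In the cycling epithelium 27 had at least 20 UMIs, of which 5 were at least 1.5-fold higher in FMTg and 3 lower, with a median log2 ratio of 0.05. The shares over all genes were 15.5% and 11.5%, near those of the list. Ccnd1, cyclin D1, stood at 360 and 323 CPM, and Ctnnb1, beta-catenin, at 197 and 209 CPM. Hes1, a Notch target, was 0.67 higher (0.04 to 1.35), with 24 and 164 UMIs. Fgfbp1, which carries fibroblast growth factors, was lower at 89.4 and 46.3 CPM (-0.95). Soat1 (-0.94, -1.60 to -0.24) and Fzd5 (-0.78, -1.34 to -0.19) were lower as well. Rgmb was 0.84 higher, with an interval of -0.30 to 2.22 that includes 0.

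In other epithelium 32 of the 41 had at least 20 UMIs, with 11 higher and 1 lower and a median of 0.45. Over all genes 17.7% were higher and 8.53% lower, and the median was 0.13. Tcf7l2, the main TCF factor of the gut epithelium, stood at 150.5 CPM in Tg and 313 CPM in FMTg, 1.05 higher. Erbb3, a receptor of the ErbB family, stood at 119 and 222 CPM. Ccnd1 stood at 4.08 and 15.4 CPM, 1.91 higher (1.51 to 2.33), and Hes1 at 14.5 and 37.9 CPM, 1.38 higher. Sp5, a Wnt-responsive transcription factor, was the 1 lower gene, at 28.4 and 18.6 CPM (-0.61). The part of the uneven cluster makeup of this class in these ratios was not tested.

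In leukocytes 28 had at least 20 UMIs, with 3 higher, 2 lower and a median of -0.02, where 5.99% of all genes were higher and 13.9% lower. Tcf7 and Lef1, TCF factors of T cells, stood at 27.1 and 68.5 CPM and at 14.9 and 43.5 CPM, higher by 1.34 and 1.55. Ccnd1 stood at 9.97 and 5.37 CPM there (-0.89).

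Ascl2 and Lrig1 stayed sparse in every class. Ascl2 had 16 UMIs in all kept Tg cells and 38 in FMTg, of which tuft-like cells held 68.8% and 39.5% and the cycling epithelium 18.8% and 42.1%. Lrig1 had 45 and 71 UMIs, with 9 and 34 UMIs in the cycling epithelium and 31.1% and 18.3% in leukocytes. The stromal cells, 2 in Tg and 3 in FMTg, held 7 and 9 Smoc2 UMIs, 12.7% and 9.47% of that gene's total.

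Likeness was measured over 14 class sums with at least 20 cells, as Pearson's r of log2(CPM + 10). The Tg cycling epithelium is not among them because it has 14 cells, and sums of 1 library share its depth and free RNA. The gene most like Lgr5 was Clic6 (r = 0.996), followed by Sox9 (0.995). These values rest mainly on the tuft-like sums, where Lgr5 stood at 44.3 CPM in Tg and 57.9 CPM in FMTg. It stood at 12.8 CPM in the FMTg cycling epithelium and at most 0.78 CPM in the other sums. Olfm4 was most like Aqp4 (0.991) and Smoc2 most like Fgfbp1 (0.996). Olfm4 stood at 393 CPM in the FMTg cycling epithelium and at most 4.32 CPM in the other sums. Smoc2 stood at 38.8 CPM and at most 0.93 CPM. Their r values thus rest on the FMTg cycling epithelium and cannot tell likeness from restriction to that class. Cd44 was most like Nceh1 (0.971), Axin2 most like Prodh (0.951), Slc12a2 most like Sox4 (0.949) and Rnf43 most like Golim4 (0.869).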

How the data were processed

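Single cells of small intestine from 2 mice, 1 per group, were profiled with the 10x Genomics Chromium 3′ protocol. The authors deposited 2 tables of raw UMI counts, genes by barcodes. The submitters' processing notes name CASAVA 1.8.1, Cell Ranger 3.0 and mm10. The gene annotation behind the counts was not given in the sources used here. Groups followed the genotype labels. Kept barcodes had 500 UMIs or more, 300 genes or more and no more than 25% mitochondrial UMIs, and doublets scored with scanpy 1.11.5 were removed at 0.8% per 1000 barcodes (154 Tg and 144 FMTg cells). A cell was epithelial or leukocyte with at least 5 gate UMIs and at least 2 times those of the other gate. Epithelial subsets needed at least 3 detected markers, and leukocytes took the subset whose marker list had the most UMIs, at least 3. For goblet, tuft, enteroendocrine and Paneth lists, a share of at least 0.5% of UMIs was required after the data had been seen. UMIs were summed per class and library and scaled to CPM.

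Levels have exact Poisson intervals, ratios exact conditional binomial intervals and shares Clopper-Pearson intervals, all at 95%. A 0 was set to 3 counts in a ratio, and no ratio was given where the other library had 3 or fewer. UMIs of 1 cell are not independent samples of a genotype. The members, lists and rules were chosen with earlier results of these data known. All 10 members are named. From the wider list, genes were chosen per class by UMIs or by ratio among those with at least 50 UMIs. Hes1 in the cycling epithelium and Sp5 in other epithelium led by neither and are named in addition. Promoter sequences are from RefSeq (GRCm38.p6). The ratio calculation was tested on simulated data. Alternatives used edgeR 4.0.16 and DESeq2 1.42.0 only for scaling. The software was Python 3.11.15, scipy 1.17.1, leidenalg 0.10.2 and R 4.3.3.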

Additional observations from a re-analysis of the deposited data

Results flagged for a closer look

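Cd44 moved in opposite directions in different cells of the same pair of libraries. Its log2 ratio of FMTg over Tg was 2.39 in the cycling epithelium and -2.19 in leukocytes, each with a counting interval on that side of 0. In other epithelium the ratio was 0.78, but 1 FMTg cell held 46.5% of its UMIs, and without the highest cell of each library it was 0.31. No named subset of other epithelium was higher beyond counting error: Cd44 differed by 0.11 in enterocyte-like cells, had 8 and 1 UMIs in goblet-like and 2 and 1 in tuft-like cells, and was lower by -2.12 (-3.33 to -0.99) in enteroendocrine-like cells. With 1 library per genotype the difference between these classes was not tested. The level was 11.5 and 60.1 CPM in the cycling epithelium and 296 and 64.9 CPM in leukocytes, in Tg and FMTg. Without the myeloid class the leukocyte ratio was 0.20. Within the myeloid class, 9.20% of kept Tg and 2.54% of kept FMTg cells, it was -0.86. In the cycling epithelium the ratio was 1.65 without the 7 FMTg cells carrying other markers, which held 59 of the 113 FMTg UMIs.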

How the results depend on the processing

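Each result was recomputed with other limits on cells, gates, cycle limits, scalings and gene minimums. No paired analysis was possible because each group has 1 sample and the labels give no replicate numbers. The member median of -0.23 in the cycling epithelium moved to 1.68 at a 10% mitochondrial limit, which left 4 Tg and 16 FMTg cells, and in the other 15 alternatives stayed between the median lower bound (-1.28) and the median upper bound (1.02) of the members' intervals. The leukocyte median of 0.15 moved to -0.96 with a minimum of 100 UMIs, which left 2 members, and the median of 0.71 in other epithelium ranged from 0.12 to 0.86. Olfm4 in the cycling epithelium reversed to 1.68 at the 10% limit, to 0.31 with equal weight per cell and to 0.57 without the highest cell of each library. In other epithelium, Cd44 reversed to -0.072 when crypt cells were set by cluster and to -0.26 with equal weight per cell, Lgr5 to -0.051 at the 10% limit, Ascl2 to -0.31 at 50% and -0.039 with no limit, and Lrig1 to -0.018 at 50%. Cd44 in leukocytes reversed to 0.20 without the myeloid class. Cd44 in the cycling epithelium ranged from 1.65 to 2.62, Sox9 from 0.43 to 2.50 and Smoc2 from -1.67 to -0.83. The low-count members there moved further: Lgr5 ranged from -1.78 to 1.88, Axin2 from -0.56 to 1.51 and Lrig1 from -0.36 to 1.68, with each highest value found without the highest cell of each library. Other scalings shifted ratios by at most 0.16 in size: TMM by -0.14 and DESeq2 by -0.16 in other epithelium, and totals without abundant genes by 0.13 in leukocytes. The cause of the other reversals was not tested. The alternatives without the highest cell, without cells carrying other markers and without the myeloid or tuft class were added after the data had been seen. Of 60 shares of cells, 48 left their interval after thinning. Of 20 leukocyte levels, 9 did so in leukocytes with at most 1 epithelial gate UMI. Rnf43 in Tg fell below its interval to 34.6%, on 11 UMIs. Cd44 and Olfm4 in Tg and Slc12a2 in both libraries rose above theirs. Lgr5 in both libraries and Ascl2 and Smoc2 in Tg fell to 0. Lrig1 in Tg stayed within its interval but rested on 3 UMIs.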
